A study of Homo sapiens with 2 samples.

Results

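The expression of 10 chemokine ligand genes was described in U87, an established line of human glioblastoma cells with wild-type genotype by the labels, kept for 72 h in either DMSO, the solvent control, or the curcumin analog CCA-1.1. There was 1 library for each condition, so no difference between the libraries had a replicate check and no test was possible. The dose of CCA-1.1 used for sequencing and the number of cultures behind a library were not given in the sources used here. The CC ligands were CCL2, CCL5, CCL7 and CCL20, and the CXC ligands were CXCL1, CXCL2, CXCL3, CXCL6, CXCL8 and CXCL12. They were 10 of the 41582 genes to which transcripts could be matched, and 10 of 46 chemokine ligand genes looked up in the table. These members were chosen by name with the TPM values and the differences of these same libraries already known, so their values are a description with no test.

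Chemokines are small secreted proteins that direct the movement of leukocytes and other cells through G protein-coupled receptors, and they are held on cell surfaces and matrix by glycosaminoglycans. CXC ligands with the ELR motif, which include CXCL1, CXCL2, CXCL3, CXCL6 and CXCL8, attract neutrophils through CXCR1 and CXCR2. CC ligands such as CCL2 and CCL5 attract monocytes, macrophages and T cells. Many chemokine genes are switched on by NF-kB and AP-1 downstream of interleukin-1 and tumour necrosis factor, and glioblastoma cells are a known source of several of them.

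The 5 ELR ligand genes among the members lie within 358.6 kb of chromosome 4 of GRCh38.p14, from 73740569 to 74099195. RefSeq windows of 300 bases around the annotated start of transcription, from -250 to 50 with -1 as the base before the start, were matched for 8 of the 10 members, all but CCL2 and CCL5. All 5 ELR ligands among the members carried GGAATTTCC, a sequence of the NF-kB type, whether or not the gene was detected. Its first base was at -91 in CXCL8, -89 in CXCL6, -78 in CXCL1 and CXCL3, and -77 in CXCL2. The motif GGANTTTCC, searched on both strands, was in 1.64% of all 35116 windows. The windows are shown because CXCL8, CXCL2 and CXCL3 had values above 1 TPM and CXCL1 and CXCL6 were at 0, with the same 9 bases in each. For CXCL8 the whole window is printed and for the others the last 130 bases before the start site, with every match to a searched motif in capitals.
CXCL8, chr4:73740319-73740618, plus strand: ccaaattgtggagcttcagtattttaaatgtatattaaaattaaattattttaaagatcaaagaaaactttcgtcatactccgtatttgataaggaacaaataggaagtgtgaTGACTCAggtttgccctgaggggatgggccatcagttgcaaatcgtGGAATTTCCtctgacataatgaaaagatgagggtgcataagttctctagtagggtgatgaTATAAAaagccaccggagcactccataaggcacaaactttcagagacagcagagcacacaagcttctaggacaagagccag
CXCL2, chr4:74099196-74099325, minus strand: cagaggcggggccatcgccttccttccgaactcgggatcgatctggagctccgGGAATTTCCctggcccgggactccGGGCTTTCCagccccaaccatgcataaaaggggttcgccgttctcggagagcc
CXCL3, chr4:74038690-74038819, minus strand: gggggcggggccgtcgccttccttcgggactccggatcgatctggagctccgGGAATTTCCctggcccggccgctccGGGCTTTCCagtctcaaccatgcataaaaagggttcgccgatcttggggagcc
CXCL1, chr4:73869263-73869392, plus strand: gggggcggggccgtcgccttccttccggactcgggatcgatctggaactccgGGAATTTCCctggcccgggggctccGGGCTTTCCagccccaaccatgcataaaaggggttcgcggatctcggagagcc
CXCL6, chr4:73836548-73836677, plus strand: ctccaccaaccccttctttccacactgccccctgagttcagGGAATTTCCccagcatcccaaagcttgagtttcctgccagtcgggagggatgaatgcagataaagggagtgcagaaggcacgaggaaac

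The looser motif GGNNNTTCC, which includes the matches above, was in 20.1% of all windows. It gave a second match in CXCL1, CXCL2 and CXCL3, each at -53, and 1 in CCL20 on the opposite strand at -79. The AP-1 motif TGANTCA was in 7.71% of all windows. Among the members it was found in CXCL8 at -137 and in CCL7 at -51. TATAAA, the core of a TATA box, was in 11.5% of windows and in those of CXCL8, CCL7 and CCL20. The C/EBP motif TTGCNNAA was in 10.5% of windows. Among the members it matched in CXCL2 alone, on the opposite strand at -188, outside the bases printed. The CXCL8 window holds ttgcaaat shortly before its GGAATTTCC, which misses this pattern at the last base alone. The lack of a match is therefore not read as the lack of a site. No searched motif was found in the window of CXCL12. Between these windows, CXCL1 and CXCL3 were identical at 254 of 292 aligned bases, CXCL1 and CXCL2 at 231 of 269, and CXCL1 and CXCL8 at 144 of 266. A match is a description of letters and was not tested as a binding site.

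Expression is given in TPM, which corrects reads for transcript length and brings both libraries to the same total, so that levels may be compared between genes while the read depth stays unknown. The TPM of all RefSeq transcripts of a gene was added. Differences are CCA-1.1 minus DMSO in log2(TPM + 1), and the added 1 TPM shrinks the differences of genes with low levels. In bulk RNA, fewer cells that express a gene cannot be told apart from less RNA per cell. Of the 10 members, 4 had a mean of at least 10 TPM, CXCL3 made 5 with a mean of at least 1 TPM, 3 were below 1 TPM in both libraries, and CXCL1 and CXCL6 were listed at 0 in both. All 8 members above 0 were lower in the CCA-1.1 library, the 3 below 1 TPM included. The 5 averaging 1 TPM or more were all lower, beside 46.0% of the 12041 protein-coding genes at such levels. The members were picked with this contrast known, so no uniform fall is read from the count.

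CXCL8, or interleukin-8, which attracts and activates neutrophils and promotes the growth of vessels, stood at 73.2 TPM with DMSO and 29.6 TPM with CCA-1.1. The latter was 40.5% of the DMSO level, a difference of -1.28. CXCL8 had the highest level of the members in the DMSO library and was second to CXCL2 in the CCA-1.1 library. The gene (Entrez 3576) lies on chromosome 4 from 73740569 to 73743716. Its transcript NM_000584.4 held 99.3% of the TPM in DMSO and 99.7% in CCA-1.1, and NM_001354840.3 was at 0.48 TPM and 0.09 TPM.

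CCL5, also called RANTES, attracts T cells, monocytes and eosinophils, and its gene (Entrez 6352) lies on chromosome 17 from 35871491 to 35880360. It stood at 56.4 TPM with DMSO and 20.7 TPM in the CCA-1.1 library, which is 36.7% of the DMSO level and a difference of -1.41. NM_002985.3 carried 55.1 TPM and 20.7 TPM of this. The second transcript, NM_001278736.2, was at 1.22 TPM in DMSO, or 2.16% of the gene, and was listed at 0 in CCA-1.1. CCL5 came next after CXCL8 with DMSO, and behind CXCL2, CXCL8 and CCL2 with CCA-1.1.

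CXCL2 and CXCL3, near copies of CXCL1 that act on CXCR2, were lower in CCA-1.1 by less than 2-fold. CXCL2 (Entrez 2920, chromosome 4 from 74097040 to 74099195) stood at 47.6 TPM with DMSO and 32.7 TPM with CCA-1.1, 68.8% of the DMSO level and a difference of -0.53. CXCL3 (Entrez 2921, chromosome 4 from 74036589 to 74038689) was at 9.61 TPM and 7.14 TPM, a difference of -0.38. CXCL1, on chromosome 4 from 73869393 to 73871308, was listed at 0 in both libraries for NM_001511.4 and NR_046035.2 alike. CXCL6, which acts on CXCR1 and CXCR2, was also listed at 0 in both.

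Reads of CXCL1, CXCL2 and CXCL3 could be divided among them by estimation, since the transcripts are alike. Over aligned bases of the longest GENCODE coding transcripts, CXCL1 and CXCL2 were 91.1% identical, CXCL2 and CXCL3 83.6% and CXCL1 and CXCL3 82.2%. Of the stretches of 31 bases in the CXCL1 transcript, 15.0% were also in another chemokine ligand gene, against 21.7% in CXCL2 and 9.57% in CXCL3, and none in CXCL8, CCL2, CCL7, CCL20 or CXCL12. The sum of CXCL1, CXCL2 and CXCL3 came to 57.2 TPM with DMSO and 39.9 TPM with CCA-1.1, with a difference of -0.51. A division of reads among the 3 genes alters this sum only through their differences in transcript length.

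CCL2, or MCP-1, which recruits monocytes through CCR2, stood at 37.6 TPM with DMSO and 26.1 TPM in the CCA-1.1 library. This is 69.5% of the DMSO level and a difference of -0.51. The gene (Entrez 6347) has 1 transcript in the table, NM_002982.4, and lies on chromosome 17 from 34255285 to 34257203. CCL7, or MCP-3, its relative, whose gene starts 14.9 kb further along, was at 0.31 TPM in DMSO and listed at 0 in CCA-1.1, so no fold change is given. The neighbours CCL2 and CCL7 thus stood at very different levels.

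CCL20, the ligand of CCR6, and CXCL12, also called SDF-1, which keeps stem and progenitor cells in their niches, were both near the floor of the table. CCL20 stood at 0.74 TPM with DMSO and 0.69 TPM with CCA-1.1, which is a difference of -0.04. Its transcripts differed in direction, with NM_004591.3 at 0.59 TPM and 0.23 TPM and NM_001130046.2 at 0.15 TPM and 0.46 TPM. How many reads lie behind these values is not known from TPM. CXCL12 was at 0.19 TPM and 0.06 TPM, all of it in NM_199168.4, which encodes the alpha isoform, and its 4 other transcripts were listed at 0 in both libraries. Of the 18 transcripts of the members, 11 were above 0 in at least 1 library.

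CXCL8 and CCL5 were the 2 members lower by more than 2-fold, and 0 of 10 were higher by more than 2-fold. Over all 41582 genes, 0.714% were lower and 0.815% higher by that much. Of 12041 protein-coding genes averaging 1 TPM or more, 0.191% were lower and 0.149% higher, and of the 7906 averaging 10 TPM or more, 0.152% were lower and 0.0632% higher. Of the members, 2 of 5 with at least 1 TPM and 2 of 4 with at least 10 TPM were past the threshold downwards. Since the members were chosen with this contrast known, nothing is read from that gap. CCL5 had the 4th lowest difference of the 7906 genes and CXCL8 the 7th. CXCL2 was 66th and CCL2 73rd from the lowest. The median difference was -0.39 over the 10 members and -0.53 over the 5 with a mean of at least 1 TPM, against 0.02 over the 12041 protein-coding genes, whose 5th and 95th percentiles were -0.31 and 0.36.

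**Figure D1:**
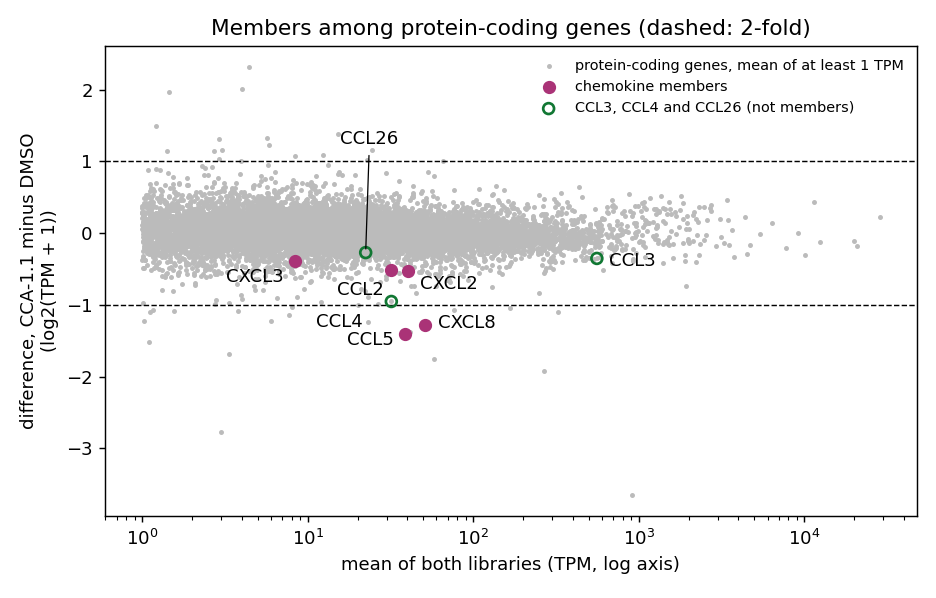
Difference between the libraries on the log2(TPM + 1) scale against mean TPM on a log axis, with 1 grey point for each of 12041 protein-coding genes and dashed lines at 2-fold. The 5 members with at least 1 TPM (filled) lie in the lower part of the cloud, at -0.38 to -1.41. Of the plotted genes, 362 lie below CXCL3 and 6 below CCL5. CCL3, CCL4 and CCL26 (open) lie between -0.27 and -0.95.

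The order of levels differed between the libraries. In DMSO it ran from CXCL8 at 73.2 TPM through CCL5, CXCL2 and CCL2 to CXCL3 at 9.61 TPM. In CCA-1.1 it ran from CXCL2 at 32.7 TPM through CXCL8, CCL2 and CCL5 to CXCL3 at 7.14 TPM. Without replicates it is not known which neighbours in either order differ by more than the spread of cultures. The sum of the 10 members reached 225.5 TPM with DMSO and 117.0 TPM with CCA-1.1, or 51.9%. The ELR ligands made up 130.3 TPM and 69.5 TPM of it, and the CC ligands 95.04 TPM and 47.5 TPM.

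Position gave no common level. Within the chromosome 4 cluster, CXCL8 lay at one end and CXCL2 at the other, with CXCL6, CXCL1 and CXCL3 between them. Of 12 other genes annotated inside it, 7 had a value, and none of these reached 0.5 TPM. PPBP, the platelet basic protein gene, was at 0.43 TPM in DMSO and 0 in CCA-1.1, and CXCL5 was at 0.17 TPM and 0.02 TPM. PF4, PF4V1 and LOC124900715 were listed at 0 in both libraries, LOC105377275 was at 0.21 TPM and 0.30 TPM, and PPBPP2 at 0 and 0.10 TPM. The nearest coding gene past CXCL2, MTHFD2L, which encodes a mitochondrial folate enzyme, was at 25.6 TPM and 28.5 TPM, a difference of 0.15, while RASSF6 on the CXCL8 side was at 0.02 TPM and 0.01 TPM. Beside CCL5, HEATR9 was at 0.14 TPM and 0 and RDM1 at 0.40 TPM and 0.36 TPM. The neighbours ASIC2 and CCL11 of CCL2 and CCL7, SCYGR8 and DAW1 of CCL20, and ZNF32 and TMEM72 of CXCL12 were each below 0.25 TPM in both libraries.

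**Figure D2:**
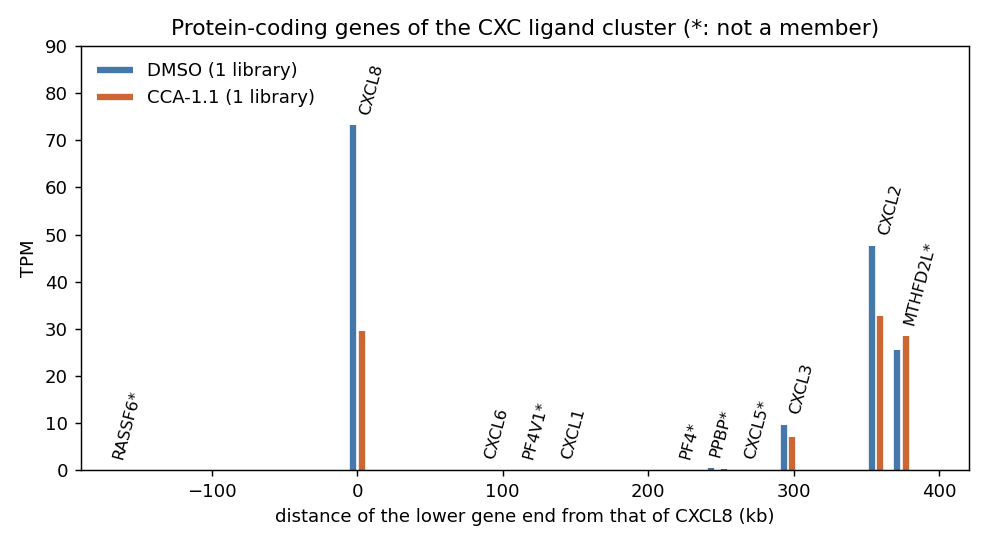
TPM in the DMSO library (left bar) and the CCA-1.1 library (right bar) of protein-coding genes of the chromosome 4 cluster and its nearest coding neighbours, by distance in kb from CXCL8. CXCL8, CXCL3 and CXCL2 stand out as lower in CCA-1.1, MTHFD2L next to CXCL2 is at 25.6 TPM and 28.5 TPM, and the other genes lie at or near 0.

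The other 36 chemokine ligand genes were mostly at low levels, with 14 at 0 in both libraries and 5 with a mean of at least 1 TPM. Of these 5, 4 were lower and 1 was higher in CCA-1.1, with a median of -0.35. CCL3L3, a gene copy of CCL3, was the 1 past 2-fold, at 1.94 TPM and 0.40 TPM, but 99.5% of its 31-base stretches were also in another ligand gene, so its value is uncertain. CCL27 was the 1 that was higher, at 1.01 TPM and 1.19 TPM. The rest are named after their values were seen. CCL3, or MIP-1 alpha, had the highest level of any chemokine ligand, with 627 TPM for DMSO and 490.4 TPM for CCA-1.1 and a difference of -0.35. CCL4, or MIP-1 beta, was at 42.6 TPM and 21.5 TPM, a difference of -0.95. These genes also have near copies, with 240 of the 750 31-base stretches of CCL3 and 252 of the 630 of CCL4 found in another ligand gene, so their own values carry the same limit. With these copies added, CCL3 and CCL3L3 came to 628.5 TPM and 490.8 TPM, and CCL4 and CCL4L2 to 42.8 TPM and 21.7 TPM. CCL3L1, which held 723 of the 754 31-base stretches of CCL3L3, was not among the ligand genes looked up. It is not in these sums, so the limit stays. CCL26, an eotaxin, was at 24.6 TPM and 20.2 TPM. CCL3 held 67.7% of the TPM of all 46 ligands in DMSO and 75.1% in CCA-1.1, while the 10 members held 24.4% and 17.9%. CXCL9, CXCL10 and CXCL11, the interferon-induced CXCR3 ligands, were listed at 0 in both libraries.

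The cells were checked against marker genes. VIM at 3217 TPM and 3106 TPM, CHI3L1 at 4947 TPM and 4397 TPM and FN1 at 11241 TPM and 9088 TPM were abundant in both libraries, whereas of the glial lineage markers S100B was listed at 0 in both, GFAP was at 0.41 TPM and 0.57 TPM, SOX2 at 1.87 TPM and 1.45 TPM and OLIG2 at 5.64 TPM and 7.03 TPM. Of the 12 markers of such lines, 10 had a mean of at least 1 TPM, with 8 lower and 2 higher and a median of -0.20. Among these, TNC was lowest at 162.7 TPM and 96.7 TPM with -0.74 and OLIG2 highest at 0.27. The 11 markers of myeloid and lymphoid cells, which make CCL3 and CCR1 in tissue, summed to 4.42 TPM with DMSO and 4.59 TPM with CCA-1.1, with 5 listed at 0 in both, among them CD3E and MS4A1, and PTPRC at 0.09 TPM and 0.07 TPM. Of these, 2 had a mean of at least 1 TPM. CD14 was at 1.82 TPM and 1.54 TPM, a difference of -0.15, and CSF1R at 1.23 TPM and 1.62 TPM, a difference of 0.23. The 6 endothelial and pericyte markers summed to 45.6 TPM and 42.6 TPM, of which PDGFRB held 38.6 TPM and 34.8 TPM, with PECAM1 lowest at -0.25 and RGS5 highest at 0.56.

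Of the receptors of the members given here, CCR1 was the 1 at a high level. CXCR1 was listed at 0 in both libraries and CXCR2, the main receptor of the ELR ligands, was at 0.02 TPM in DMSO and 0 in CCA-1.1. CXCR4, the receptor of CXCL12, was listed at 0 in both, and ACKR3, which scavenges CXCL12, was at 0.03 TPM and 0. CCR2, the receptor of CCL2 and CCL7, was at 0.59 TPM and 0.44 TPM. CCR6 was at 0.03 TPM and 0.04 TPM. CCR1, which binds CCL5, CCL7 and CCL3, was at 94.1 TPM with DMSO and 103.8 TPM with CCA-1.1, with a difference of 0.14. CCR3, which binds CCL5 and CCL7, was at 0.85 TPM and 1.61 TPM, the highest difference among the signalling receptors with at least 1 TPM, at 0.50. CXCR6, which binds CXCL16, had the lowest, at 2.67 TPM and 1.44 TPM with -0.59. Of 23 signalling and atypical receptors in the table, 7 had a mean of at least 1 TPM and 0 were past 2-fold in either direction. The sole atypical receptor with at least 1 TPM, CCRL2, was at 24.1 TPM and 19.3 TPM.

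**Figure D3:**
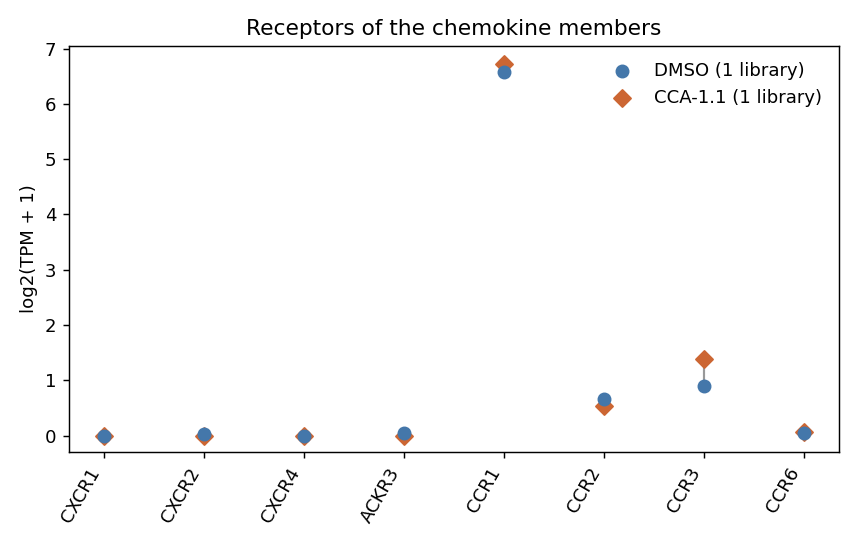
Level of 8 receptors of the members in log2(TPM + 1), with a circle for the DMSO library and a diamond for the CCA-1.1 library. CCR1 is at 94.1 TPM and 103.8 TPM, CCR3 follows at 0.85 TPM and 1.61 TPM, and the others lie below 1 TPM.

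Genes that act before and after chemokines were counted in 6 lists of 77 genes, of which 70 had a mean of at least 1 TPM. Of the 70, 51 were lower and 19 higher in CCA-1.1, with 2 lower by more than 2-fold and 0 higher, and the median was -0.10. Of the 12041 protein-coding genes averaging 1 TPM or more, 46.0% were lower, with 0.191% lower and 0.149% higher by more than 2-fold. The lists were chosen with earlier results of these data known, so nothing is read from these gaps. The list of cytokines that induce chemokines and of their receptors had 13 of 16 lower, with a median of -0.10. It also held the antagonist gene IL1RN, the receptor gene TLR4 and the signalling genes MYD88, IRAK1, IRAK4 and TRAF6. IL6, the acute-phase cytokine gene often induced with CXCL8, was the 1 past 2-fold, at 11.1 TPM and 4.92 TPM with a difference of -1.03, and IL1RAP, a part of the interleukin-1 receptor, was the highest at 0.21. Named after their values were seen, IL1B was at 74.6 TPM and 44.2 TPM, IL1A at 51.4 TPM and 46.03 TPM, and TNF at 0.68 TPM and 0.38 TPM.

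The NF-kB list, of subunits, inhibitors and kinases, had 5 of 14 lower and 9 higher and a median of 0.08, beside 46.0% lower among all protein-coding genes, and its difference from the other lists was not tested. NFKBIZ, a co-activator of NF-kB, was lowest at 12.6 TPM and 9.64 TPM with -0.35, and IKBKB, a kinase that releases NF-kB, was highest at 20.5 TPM and 25.7 TPM with 0.31. Of the AP-1 and C/EBP factors, 9 of 10 were lower, from CEBPD at 75.6 TPM and 50.8 TPM with -0.56, and ATF3, a stress factor, was the exception at 85.0 TPM and 114.9 TPM with 0.43. Of the factors that control the decay of chemokine mRNA, 8 of 10 were lower, from RC3H1 at -0.46 to ZFP36L2 at 0.15.

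Proteases that trim or inactivate chemokines had 9 of 11 lower and a median of -0.31. MMP3, stromelysin 1, was the 1 past 2-fold, at 223.5 TPM and 108.1 TPM with a difference of -1.04, and ADAM17 was the highest at 0.08. Proteoglycans and related proteins that bind chemokines had 7 of 9 lower and a median of -0.26, from DCN, or decorin, at 3.49 TPM and 2.01 TPM with -0.58 to GPC1, or glypican 1, at 69.4 TPM and 79.6 TPM with 0.20. The lists of NF-kB, of AP-1 and C/EBP, of mRNA decay and of proteoglycans had 0 genes past 2-fold.

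**Figure D4:**
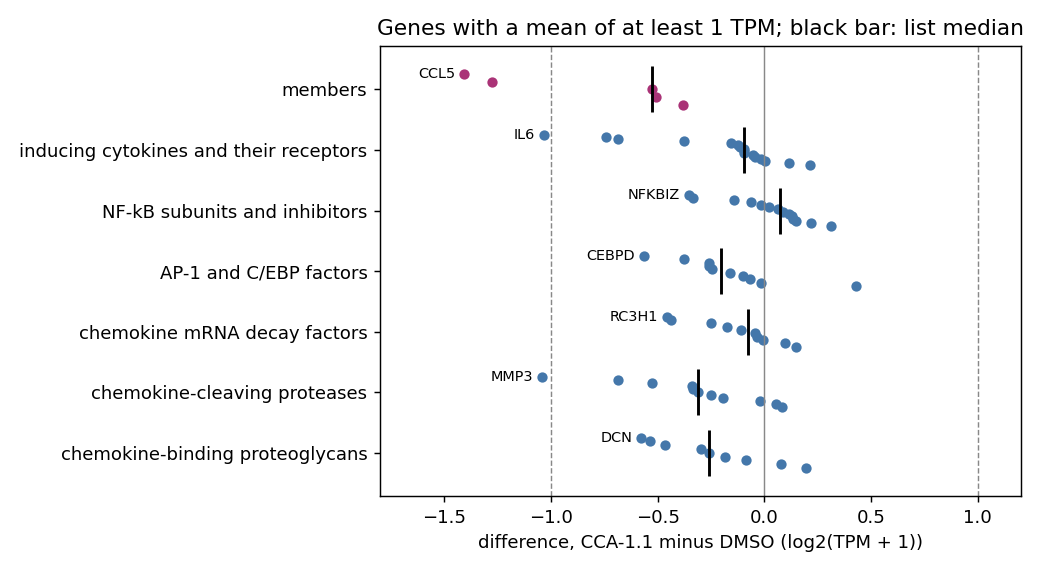
Difference on the log2(TPM + 1) scale of each gene with a mean of at least 1 TPM, by list, with the lowest gene named, black bars at list medians and dashed lines at 2-fold. The 5 members have a median of -0.53, the NF-kB list one of 0.08, and IL6 and MMP3 are the 2 genes of the other lists past 2-fold.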

How the data were processed

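U87 cells treated for 72 h with DMSO or CCA-1.1 were represented by 1 library each. Per the methods, the authors sequenced enriched mRNA on an Illumina platform, assessed reads with FastQC 0.11.9 and MultiQC 1.1, as the submitters' processing notes also list, and quantified transcripts with Kallisto pseudo-alignment against human GRCh38.p14. The deposited values are TPM with 2 decimals, a unit taken from the quantification tool and the column totals (999999 and 1000000), since no header names it. The smallest value above 0 was 0.01 TPM. Read depth does not follow from TPM, so no counting interval is given for any value and no limit for a value of 0.

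Transcripts were assigned to genes with a RefSeq table of the same build, 169411 of 177816 by versioned identifier and 169966 with versions ignored, and TPM was summed per gene. Unmatched transcripts held 0.941% of TPM in DMSO and 0.967% in CCA-1.1. A gene was counted as past 2-fold when its log2(TPM + 1) difference was above 1 or below -1. The authors' own differential test needs read counts and was not repeated.

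The members and all gene lists were chosen with earlier results of these data known. Genes were named by rule: all members, the receptors of the members, the neighbours of each member cluster (members within 500 kb), and per list any gene past 2-fold and the highest and lowest difference among genes averaging 1 TPM or more. Of the listed genes, 1 was not analysed here, and 1 item under this rule is not reported here. Protein sequences were not used here, and likeness between members was taken from GENCODE transcripts instead, by global alignment and by shared stretches of 31 bases across 53 chemokine ligand genes and pseudogenes. Promoter windows came from RefSeq, GRCh38.p14. The calculation was tested on simulated TPM with planted changes larger than 2-fold, at the levels of genes averaging 10 TPM or more. That check does not cover lower levels or the real spread of cultures, which is unknown. Alternatives were pseudocounts of 0.1, 0.01 and 0 TPM, a minimum mean of 1 TPM, median-ratio scaling, curated transcripts only and a 1.5-fold threshold. Python 3.11.15, numpy 2.4.6, pandas 2.3.3, Biopython 1.88 and matplotlib 3.10.9 were used.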

Additional observations from a re-analysis of the deposited data

How the results depend on the processing

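No paired analysis was possible because each condition had a single library, and no library could be left out. CCL5 and CXCL8 stayed lower by more than 2-fold under every alternative tried. None of 52 recomputed member differences was above 0, while 8 were at 0 (CXCL1 and CXCL6). The alternatives left little room for another outcome, so nothing is read from it. A pseudocount or a minimum mean cannot change the sign of a difference, and a smaller pseudocount widens it. All transcripts of the members are curated, so that alternative repeated their values. A 1.5-fold threshold keeps any gene already past 2-fold. A pseudocount of 0.1 TPM added CCL7 to the members lower by more than 2-fold. With 0.01 TPM there were 4, with CXCL12 as well, and without a pseudocount there were 3, CCL5, CXCL8 and CXCL12, among the 7 members above 0 in both libraries. CCL7 and CXCL12 were below 0.5 TPM, and their calls depend on the pseudocount. The median over members was -0.53 with 0.1 or 0.01 TPM, -0.54 without a pseudocount and -0.53 with a minimum mean of 1 TPM. The other ligands past 2-fold, 1 as reported, were 7 with 0.1 TPM, 9 with 0.01 TPM, 4 without a pseudocount and 2 at 1.5-fold. The receptors, 0 as reported, were 5 with 0.01 TPM, 1 without a pseudocount and 1 at 1.5-fold, and the genes of the 6 pathway lists, 2 as reported, were 5 at 1.5-fold. Curated transcripts and median-ratio scaling, with a ratio of 1.003, left every count and median above as it was, within 0.1 on the log2 scale. Values below 1 TPM are limited by the unknown read depth.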

Other observations

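Several chemokine receptors were expressed whose ligands are not among the 10 genes described, and they are named here after their values were seen. XCR1, the receptor of the lymphotactins, stood at 47.3 TPM with DMSO and 52.7 TPM with CCA-1.1, while its ligands XCL1 and XCL2 were at 0.40 TPM and 0.16 TPM in DMSO and 0.11 TPM and 0 in CCA-1.1. CCR10 was at 8.74 TPM and 7.74 TPM, and its ligands CCL27 and CCL28 were at 1.01 TPM and 0.56 TPM in DMSO and 1.19 TPM and 0.31 TPM in CCA-1.1. CCR7 was at 5.06 TPM and 4.54 TPM, with its ligands CCL19 and CCL21 at 0.10 TPM or below in both libraries. Together with CCR1, these were receptors with at least 1 TPM in both libraries whose levels differed by less than 0.2 on the log2(TPM + 1) scale.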
